A study of Mus musculus with 14 samples.

Results

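The comparison described here asked what the loss of the last copy of Jmjd1b did to the transcripts of newborn male germ cells that still held 1 copy of Jmjd1a. It set 2 libraries labelled P3 Jmjd1bKO against 2 libraries labelled P3 Ctrl, 4 of the 14 libraries of the study. Members were taken by their titles, and every gene that reached 1 RPKM in 2 or more of these 4 libraries was tested. RPKM is a read number divided by transcript length and by the size of the library, so genes can be compared per length. Of 24340 gene symbols, 13414 passed that filter and 10926 did not.

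All libraries were made from postnatal male germ cells of the testis of C57BL/6 mice. The P3 Ctrl genotype was Vasa-Cre; Jmjd1a-/+; Jmjd1b-/+, taken at postnatal day 3. The P3 Jmjd1bKO genotype was Vasa-Cre; Jmjd1a-/+; Jmjd1b-/-, at the same age. Both groups therefore carried the Cre and had lost 1 copy of Jmjd1a, so neither is a wild type. Vasa-Cre drives recombination in the germline, and cells of the testis wall and interstitium keep their own alleles. The other groups used for reference at day 3 were P3 Jmjd1aKO (Vasa-Cre; Jmjd1a-/-; Jmjd1b-/+), P3 DKO (Vasa-Cre; Jmjd1a-/-; Jmjd1b-/-) and P3 WT, each of 2 libraries. The groups P7 Ctrl and P7 DKO, also of 2 libraries each, were taken at postnatal day 7. They entered the fit and every count over 14 libraries. Nothing in the labels ties the replicates to separate animals, so p-values measure the spread between these libraries, which may be technical. With 2 libraries against 2, an exact two-sided permutation test of a single value cannot go below p = 0.333.

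Jmjd1a and Jmjd1b, listed in the files as Kdm3a and Kdm3b, encode related demethylases of lysine 9 on histone H3 (H3K9). Methylation of that lysine, laid down by enzymes such as EHMT2, is a mark of repressed chromatin, and the demethylases oppose it. Around birth, male germ cells pass from a resting state to dividing spermatogonia, some of which become the stem cells of the adult testis. Sertoli cells are the somatic neighbours that enclose them.

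Only 3 entries of the 13414 passed the threshold (limma, Benjamini-Hochberg adjusted p under 0.05), which is 0.0224% of those tested. All 3 were microRNA loci, 1 higher (0.00745%) and 2 lower (0.0149%) in the knockout. The mature microRNAs that these loci encode are shown because they are the whole list of calls, from RefSeq on GRCm38.p6, written 5′ to 3′ with the seed (bases 2 to 8) in capitals.

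mmu-miR-8105: aGGCGACUggcgagacccgaag

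mmu-miR-23a-5p: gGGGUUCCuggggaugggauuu

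mmu-miR-23a-3p: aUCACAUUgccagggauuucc

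mmu-miR-93-5p: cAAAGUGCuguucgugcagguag

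mmu-miR-93-3p: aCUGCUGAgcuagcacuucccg

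The 5 seeds differ from each other. The seed of mmu-miR-93-5p, AAAGUGC, occurs in 7 of the 1679 mature mouse sequences of that table, among them mmu-miR-17-5p and mmu-miR-106b-5p. Each of the other 4 seeds occurs once. The libraries were made with a kit for messenger RNA, so the values of these loci are not levels of the mature molecules.

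The targeted gene, Kdm3b, was lower in the knockout libraries but not absent. It stood at 10.2 and 13.5 RPKM in the P3 Ctrl libraries and at 4.72 and 7.51 RPKM in the P3 Jmjd1bKO libraries. Both knockout libraries lay below both controls. The knockout mean of 6.12 ± 1.97 RPKM (SD, n = 2) was 51.6% of the control mean of 11.8 ± 2.39 RPKM (SD, n = 2). The log2 change, here and below on the log2(RPKM + 1) scale, was -0.87 ± 0.21 (SE), with a 95% interval from -1.33 to -0.40. Its p was 0.00198 before adjustment and 0.978 after it, so the deleted gene itself did not pass. The labels do not say which exons are deleted. A value for the whole gene therefore does not measure intact transcript.

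Elsewhere in the study Kdm3b followed the number of copies in the labels. It was 26.9 RPKM in both P3 WT libraries, 9.81 and 13.9 RPKM in P3 Jmjd1aKO and 4.26 and 4.48 RPKM in P3 DKO. The P3 Jmjd1bKO libraries thus lay above both P3 DKO libraries and below every library with a remaining copy. The second knockout library, with 7.51 RPKM, was the higher of the pair. It is also the library with high Sertoli transcripts described below, and the part of those transcripts in its Kdm3b value was not tested. Without that library and its counterpart in P3 Jmjd1aKO, the change in Kdm3b was -1.15 with an adjusted p of 0.20. With the mean log2(RPKM + 1) level of the tested Sertoli markers as a covariate it was -1.13 with an adjusted p of 0.0583. That was the lowest over the alternatives, in which the adjusted p ran up to 1.

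The related genes gave no call. Kdm3a, of which both groups have 1 copy, was 28.4 and 26.3 RPKM in the controls and 26.1 and 25.4 RPKM in the knockouts. Its change was -0.08 ± 0.11 (SE), and the 95% interval, from -0.32 to 0.16, leaves no room for a 2-fold change. By contrast Kdm3a was 9.83 and 9.84 RPKM in P3 Jmjd1aKO. Jmjd1c, the third gene of the family, was 47.3 and 34.8 RPKM in the controls and 45.1 and 30.4 RPKM in the knockouts, with a 95% interval of its change from -0.63 to 0.38. In Jmjd1c the libraries split by replicate number rather than by genotype.

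**Figure D1:**
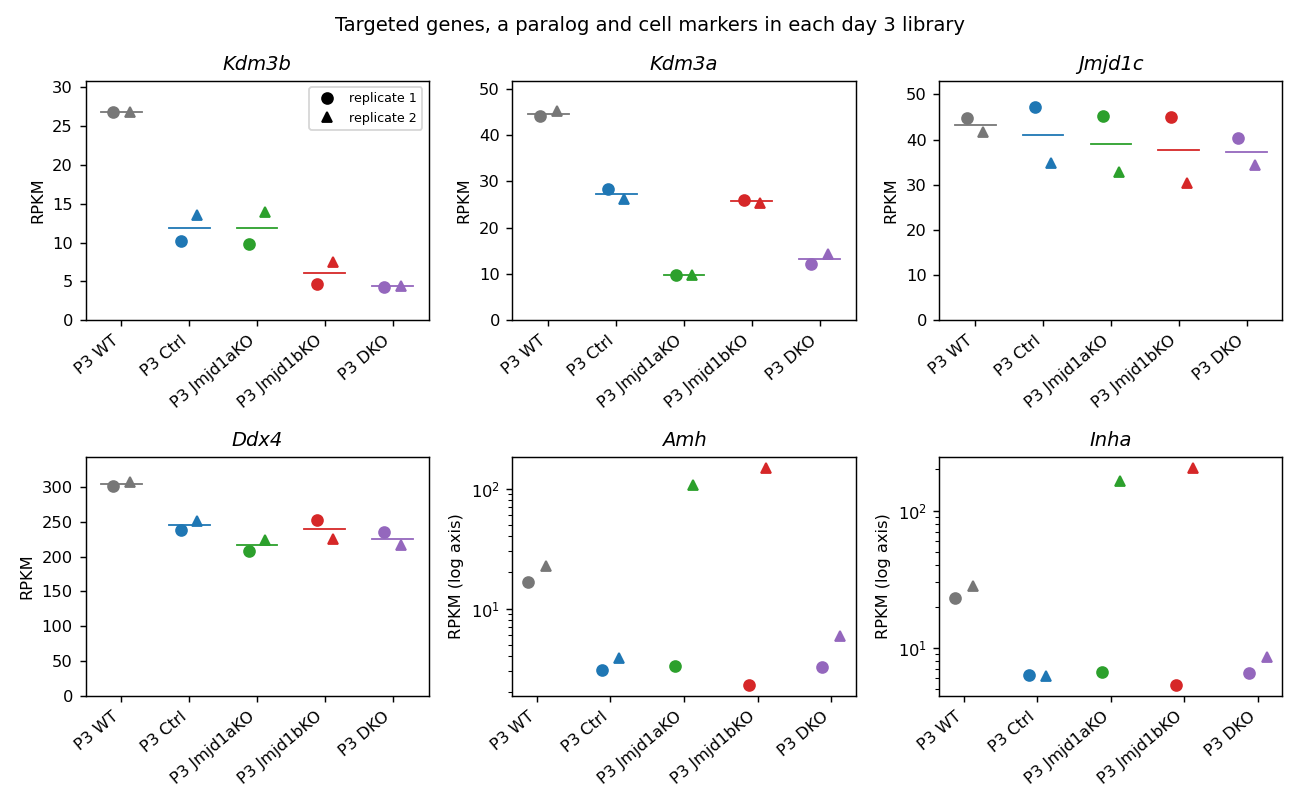
RPKM in each day 3 library (y axis; logarithmic for Amh and Inha) by group (x axis) for Kdm3b, Kdm3a, Jmjd1c, the germ cell gene Ddx4 and the Sertoli genes Amh and Inha. Circles are replicate 1, triangles replicate 2 and lines the mean of 2 libraries (no line on the logarithmic panels). Kdm3b is lowest in the libraries without a copy of the gene, and Amh and Inha are highest in replicate 2 of both single knockouts, with the P3 WT libraries between these and the rest.

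The germ cell label held in all 4 libraries. Ddx4, the RNA helicase also known as Vasa, was 238 and 251 RPKM in the controls and 252 and 226 RPKM in the knockouts. Dazl, which binds messenger RNA in germ cells, was 390 and 409 RPKM against 411 and 328 RPKM. Dnd1, another RNA-binding protein, was 66.2 and 74.0 RPKM against 64.0 and 70.9 RPKM. Summed over the pan-germ-cell list, the controls had 2848 and 3092 RPKM and the knockouts 3004 and 2744 RPKM, so replicate 2 of the knockouts was the lowest of the 4.

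That library also carried transcripts of Sertoli cells far above the other 3. Amh, the hormone that Sertoli cells make before puberty, was 3.09 and 3.84 RPKM in the controls, 2.30 RPKM in replicate 1 of P3 Jmjd1bKO and 150 RPKM in replicate 2. Inha, the inhibin alpha subunit, went from 5.36 RPKM in replicate 1 to 206 RPKM in replicate 2, against 6.34 and 6.19 RPKM in the controls. Both P3 WT libraries also stood above the controls, at 16.6 and 22.6 RPKM for Amh and 22.9 and 28.3 RPKM for Inha. Sox9, which directs Sertoli fate, was 1.21 and 1.09 RPKM in the controls, 0.879 and 6.33 RPKM in the knockouts. Summed over the 30 Sertoli markers, the controls had 498 and 465 RPKM and the knockouts 521 and 2270 RPKM. Of the most abundant markers in the controls, Dmrt1 was 186 and 203 RPKM there and 206 and 226 RPKM in the knockouts. Trf was 54.3 and 55.2 RPKM against 66.2 and 27.1 RPKM. Ctsl was 82.3 and 82.4 RPKM against 90.5 and 275 RPKM. Gstm6 was 22.6 and 18.0 RPKM against 21.7 and 121 RPKM, and Defb36 was 24.9 and 14.9 RPKM against 26.6 and 44.1 RPKM. Of the 25 markers tested, 0 stood over 2-fold from the control mean in replicate 1. In replicate 2, 21 stood over 2-fold above it, where 3.06% of all genes did, and 1 (Krt18) stood over 2-fold below it. In bulk RNA, more cells of a type and more RNA per cell cannot be told apart, nor can fewer cells and less RNA per cell.

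Among the other somatic lists, the same library stood highest in the sums of Leydig, peritubular and stromal, and erythroid markers. Over 2-fold above the control mean were 2 of 4 Leydig and 5 of 13 peritubular and stromal markers tested, and 0 of 12 endothelial and 0 of 8 leukocyte markers. The Leydig list summed to 32.6 and 27.3 RPKM in the controls and to 29.2 and 109 RPKM in the knockouts. Hsd17b3, an enzyme of testosterone synthesis, was 1.37 and 1.53 RPKM against 0.782 and 44.2 RPKM. The defining Leydig genes were highest in replicate 2 as well, though low in RPKM. Cyp17a1 was 1.44 RPKM there and between 0.0249 and 0.0549 RPKM in the other 3 libraries, Insl3 was 2.63 RPKM against at most 0.262 RPKM, and Star was 1.89 RPKM against 0.746 to 1.36 RPKM. The peritubular and stromal list summed to 86.1 and 78.4 RPKM in the controls and to 84.1 and 314 RPKM in the knockouts. Col1a1, a collagen chain, was 20.6 RPKM in replicate 2 and between 6.22 and 6.36 RPKM in the other 3. The erythroid list, led by haemoglobin genes elsewhere, was low throughout, with sums of 4.65, 3.36, 5.38 and 13.2 RPKM. Endothelial and leukocyte sums were lowest in replicate 2, at 73.3 and 54.6 RPKM against 102 to 109.8 and 61.9 to 86.8 RPKM in the other libraries. The most abundant leukocyte marker, Fcer1g, was 62.2 and 44.5 RPKM in the controls and 57.1 and 25.2 RPKM in the knockouts. The defining leukocyte genes were low in RPKM, and C1qa and Csf1r were highest in replicate 2. C1qa was 1.98 RPKM there against at most 0.0470 RPKM, and Csf1r 0.624 RPKM against at most 0.0857 RPKM. Ptprc was 0.110 RPKM in both knockouts, against 0.104 and 0.0657 RPKM in the controls. Of the defining genes, Insl3 (Leydig) and C1qa (leukocyte) were listed at 0 in replicate 1 of the controls.

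**Figure D2:**
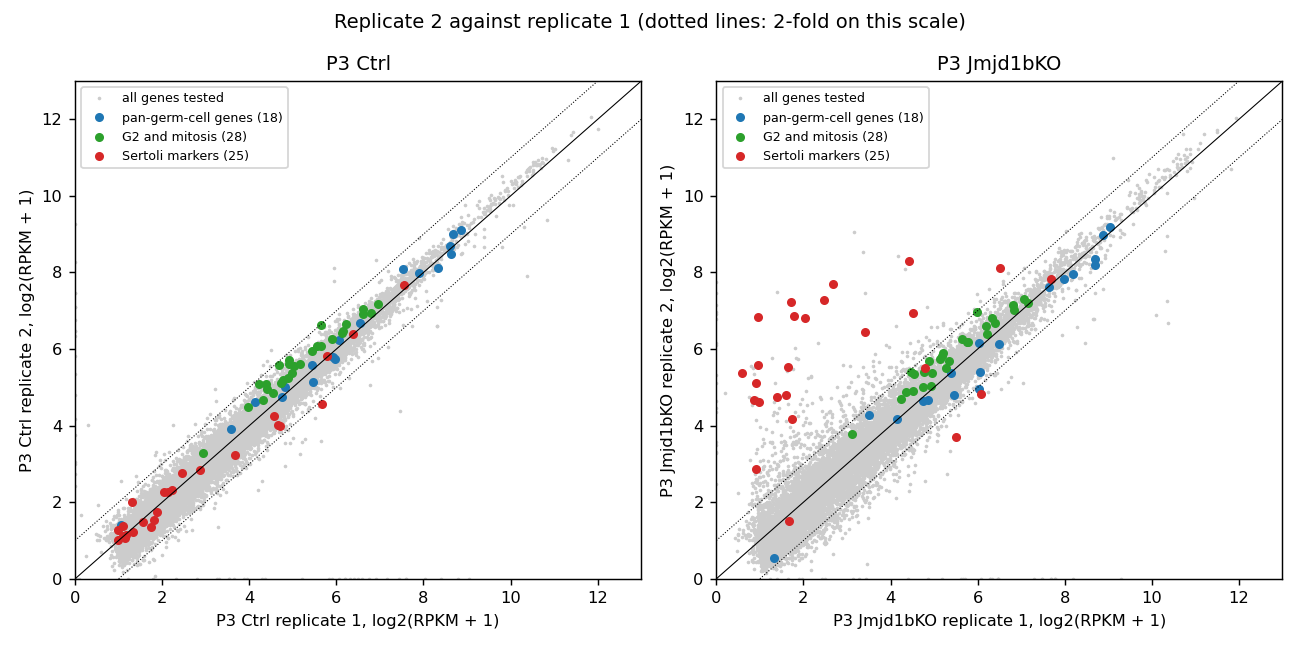
Replicate 2 against replicate 1 on the log2(RPKM + 1) scale for all 13414 genes tested, in P3 Ctrl (left) and P3 Jmjd1bKO (right), with pan-germ-cell genes, G2 and mitosis genes and Sertoli markers coloured. The solid line marks equal values and dotted lines mark 2-fold. Most Sertoli markers lie above the upper dotted line in P3 Jmjd1bKO and near the solid line in P3 Ctrl, and G2 and mitosis genes lie above the solid line in both.

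The genes that set the 2 knockout libraries apart most were Sertoli genes on one side. The largest rises from replicate 1 to replicate 2 were in Defb19 (a defensin, 1.63 to 179 RPKM), Cst9 (a cystatin, 0.942 to 113 RPKM), Amh, Gstm2 (a glutathione transferase, 9.25 to 368 RPKM), Aldh1a1 (which makes retinoic acid, 2.43 to 116 RPKM) and Inha. Each was far below replicate 2 in both controls, though above replicate 1. Defb19 was 4.02 and 4.30 RPKM in the controls, and Cst9 was 1.49 and 3.05 RPKM. The largest falls were in the pseudogene Atp6v0c-ps2 (49.95 to 0.00202 RPKM), Rps27rt (1085 to 117 RPKM), Krt7 (20.6 to 3.88 RPKM), Gata2 (16.4 to 3.30 RPKM), Rpl26 (20.7 to 4.53 RPKM) and Rasgrf1 (10.2 to 1.99 RPKM). Krt7, Gata2 and Rasgrf1 were also lower in replicate 2 than in replicate 1 of the controls, at 10.1 against 19.8 RPKM, 8.87 against 16.7 RPKM and 3.81 against 10.1 RPKM. Atp6v0c-ps2, Rps27rt and Rpl26 share sequence with other copies, so the division of reads among the copies is uncertain.

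No depth is given with these files, and it was estimated from the steps in which low RPKM values rise. The controls came to 38.4 and 43.4 M (mega) fragments and the knockouts to 43.6 and 26.2 M, within a range of 13.5 to 50.9 M over the 14 libraries. The shallower knockout library is the one with high Sertoli transcripts. Replicate 2 of P3 Jmjd1aKO, at 26.3 M fragments, was the other library that combined both features, with a Sertoli sum of 1906 RPKM.

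Set against the mean of the controls, the 2 knockout libraries gave unlike pictures. In replicate 1, 98 genes (0.731%) lay over 2-fold away. Between the controls themselves, 163 genes (1.22%) lay over 2-fold apart. The first count sets 1 library against a mean of 2 and the second sets 1 library against 1, so their sizes cannot be compared directly. Of those 98, 88 were small RNA loci, 2 were predicted genes or clones and 8 were other genes. Only 5 of the 8 had a mean of 5 RPKM or more, namely Kdm3b, Rps15a-ps6, Atp6v0c-ps2, Chordc1 and S100z. Chordc1 (3.77 and 15.3 RPKM in the controls, 3.22 and 12.9 RPKM in the knockouts) and S100z (18.5 and 4.91 RPKM against 21.7 and 8.78 RPKM) split by replicate number, not by genotype. These 5 genes were looked up after the counts were known. In replicate 2, 605 genes (4.51%) lay over 2-fold away, 411 of them higher.

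The 25 gene lists gave the same contrast. They held 432 genes that were tested, and in replicate 1 just 1 of them, Kdm3b, lay over 2-fold from the control mean. In replicate 2 there were 51, of which 21 were among the 370 genes outside the somatic marker lists. Between the 2 controls there were 6, a count of 1 library against 1 rather than against a mean.

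Distances between whole libraries showed where replicate 2 sat. Among 9346 genes with a mean of 5 RPKM or more, the controls differed by over 2-fold at 118 genes. Replicate 1 of P3 Jmjd1bKO differed from them at 74 and 119 genes. Replicate 2 differed from the controls at 550 and 315 genes and from its own replicate at 486. The library nearest to it was replicate 2 of P3 Jmjd1aKO, at 99 genes.

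**Figure D3:**
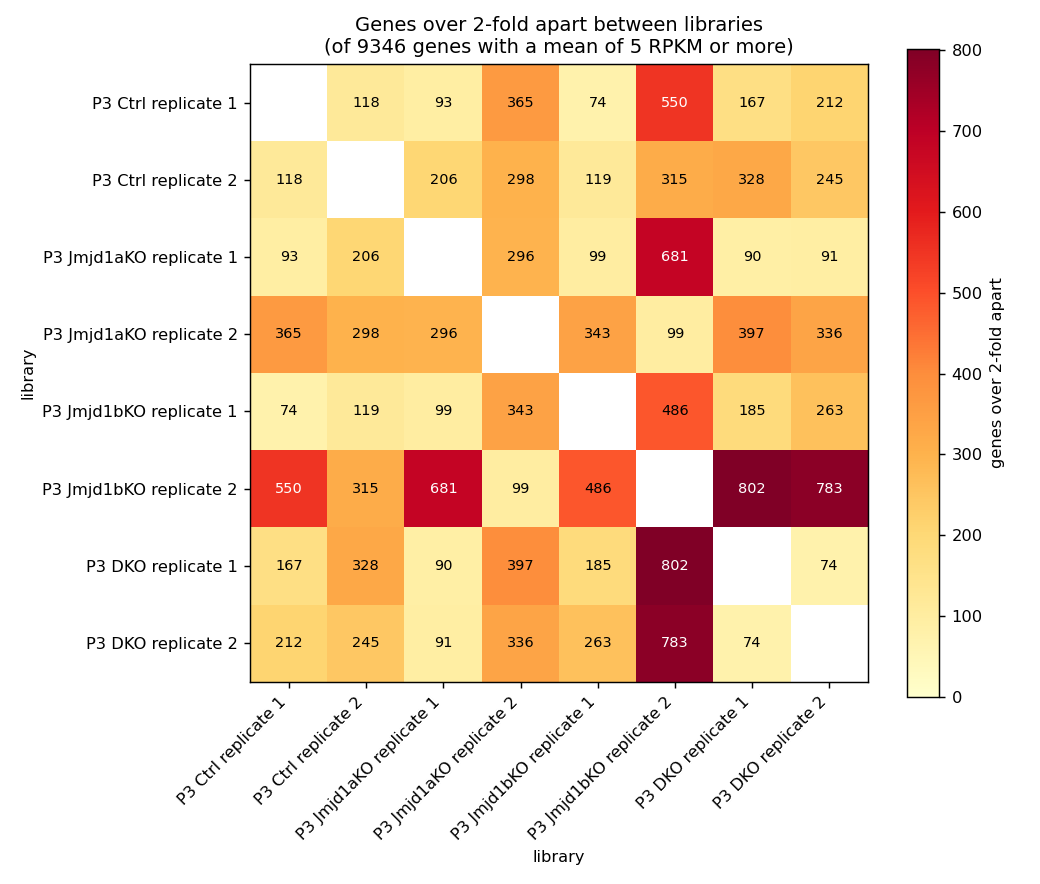
Number of genes over 2-fold apart between each pair of 8 day 3 libraries, of 9346 genes with a mean of 5 RPKM or more over the P3 Ctrl and P3 Jmjd1bKO libraries; darker cells hold more genes. Replicate 1 of P3 Jmjd1bKO differs from the controls at 74 and 119 genes, and they differ from each other at 118, while replicate 2 is nearest to replicate 2 of P3 Jmjd1aKO (99).

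Gene by gene, how far the change from control to knockout repeated depended on which replicates were paired. With replicate 1 set against replicate 1 and replicate 2 against replicate 2, the log2 differences over 13414 genes had Pearson's r = -0.05 and Spearman's rho = 0.21. Crossed, they had r = -0.31 and rho = -0.51. Genes are not independent replicates, and each difference contains 1 library of its own group, so these values describe these 4 libraries only.

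The 3 microRNA loci that passed were at 0 in 1 of the 2 groups. Mir8105 was listed at 20.2 and 22.9 RPKM in P3 Jmjd1bKO and at 0 in the other 12 libraries (adjusted p = 9.62e-08). Mir93 was listed at 23.3 and 21.1 RPKM in P3 Ctrl and at 0 in the other 12 (adjusted p = 9.62e-08). Mir23a was listed at 112 and 50.8 RPKM in P3 Ctrl, at 54.1 and 45.2 RPKM in P3 Jmjd1aKO and at 0 in the remaining 10 libraries (adjusted p = 3.66e-06). Mir8105 was therefore higher and the other two lower in the knockout. Mir93 and Mir23a were also at 0 in both P3 WT libraries, which hold both copies of both genes. The P3 WT libraries had the lowest estimated depth of the study. Whether these zeros depend on depth or on copy number was not tested.

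The genes beside each locus are given with it. Mir8105 lies on chromosome 10, from 128458680 to 128458768 on the plus strand of GRCm38 (GENCODE M21), in no other annotated gene and 480 bases before Smarcc2. That gene, a chromatin remodelling subunit, was 16.2 and 14.6 RPKM in the controls and 19 and 22.0 RPKM in the knockouts. Mir93 lies on chromosome 5, from 138165523 to 138165610 on the minus strand, within Mcm7 and over an exon of an annotated Mcm7 transcript. Mcm7, a subunit of the replicative helicase, was 188 and 222 RPKM in the controls and 205 and 249 RPKM in the knockouts. Mir25, next to Mir93, was 59.1 and 0 RPKM against 81.4 and 57.7 RPKM, and Mir106b, on the other side, was listed above 0 in replicate 1 of P3 Jmjd1bKO only, at 30.8 RPKM. Mir23a lies on chromosome 8, from 84208518 to 84208592 on the plus strand, 80 bases from Mir27a and 223 bases from Mir24-2. Mir27a was 22.6 RPKM in replicate 1 of P3 Jmjd1bKO and at 0 in the other 3 libraries of the comparison.

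Such jumps from 0 were frequent among small RNA loci. Over the 14 libraries, 282 entries were listed at 0 in at least 1 library and at 20 RPKM or more in another, and 275 of them were small RNA loci. In the 4 libraries compared here there were 135, all of them small RNA loci. The zeros are given as listed and no fold is drawn from them.

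Among the 157 small RNA loci tested, 3 passed (1.91%). Among the 13257 other genes limma called 0 (0%). When small RNA loci were left out of the fit, 256 genes had an unadjusted p under 0.05 and 0 passed after adjustment. In the full fit 264 genes had an unadjusted p under 0.05, which is 1.97% of those tested, with 149 higher (1.11%) and 115 lower (0.857%). Both knockout libraries lay above both controls at 1346 genes (10%) and below both at 1525 genes (11.4%).

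The precision of the fit sets what these counts can show. Its spread was pooled over all 7 groups, which did not vary alike. Of 9346 genes, 486 lay over 2-fold apart in the P3 Jmjd1bKO pair and 118 in the P3 Ctrl pair. The P3 Jmjd1aKO pair had 296, the P3 DKO pair 74 and the P3 WT pair 70. The intervals below therefore do not measure the spread of the 4 compared libraries alone. Log2 changes had a median SE of 0.180, and their 95% intervals reached a median of 0.40 to either side, a factor of 1.32. For 11942 of 13414 genes (89.0%) the whole interval lay within a 2-fold change in either direction. For 7609 genes (56.7%) it lay within 1.5-fold. The share within 2-fold was 93.2% among genes with a mean of 10 RPKM or more and 84.2% among the others. Among 80 tested members of the lists of pan-germ-cell genes, undifferentiated and differentiating spermatogonia and the piRNA pathway it was 73 (91.25%), whereas among the 25 Sertoli markers it was 2. These fold limits are on the log2(RPKM + 1) scale, which shrinks changes at low RPKM, so they do not bound the fold in RPKM there. Intervals hold for each gene singly and are not adjusted for the number of genes.

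Genes whose 2 groups lay farthest apart without overlap are given as values, since 0 of them passed after adjustment and each had an adjusted p of 0.978. On the higher side, among the 8841 genes that could be named and of which 970 (11%) had both knockouts above both controls, Prelid2 led. Prelid2, whose relatives carry lipids in mitochondria, was 4.28 and 3.85 RPKM in the controls and 8.17 and 9.84 RPKM in the knockouts, a change of 0.98 ± 0.29 (SE). It was 6.77 and 10.3 RPKM in P3 Jmjd1aKO, 13.5 and 13.2 RPKM in P3 DKO and 1.15 and 2.55 RPKM in P3 WT, so every knockout library at day 3 was above the controls. Jup, the junction protein plakoglobin, was 6.26 and 5.42 RPKM against 9.0 and 10.8 RPKM (0.67 ± 0.14, SE; unadjusted p = 0.000687). Jup in P3 DKO, at 5.15 and 5.04 RPKM, lay below both controls.

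The other 6 genes of that side were smaller in size. Ldhb, a subunit of lactate dehydrogenase, was 81.2 and 80.7 RPKM in the controls and 99.3 and 111 RPKM in the knockouts. Ccdc84 was 9.89 and 9.50 RPKM against 12.2 and 16.1 RPKM, and Btg3, an antiproliferative protein, was 5.76 and 6.70 RPKM against 8.35 and 9.78 RPKM. Prr13, Tmem191c and Gstt3 (a glutathione transferase) had changes of 0.43, 0.54 and 0.33. Prr13 was higher still without Jmjd1a, at 15.9 and 23.1 RPKM in P3 Jmjd1aKO and 18.9 and 27.8 RPKM in P3 DKO, against 7.76 and 6.60 RPKM in P3 Ctrl and 9.98 and 9.94 RPKM in P3 Jmjd1bKO.

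On the lower side, where 879 of the 8841 genes (9.94%) had both knockouts below both controls, Kdm3b was the third of the 8. Ahead of it stood Rps15a-ps6, a pseudogene of a ribosomal protein (18.8 and 32.5 RPKM against 6.32 and 3.52 RPKM), and Rpl26, a ribosomal protein gene (30.1 and 34.4 RPKM against 20.7 and 4.53 RPKM). Both share sequence with other copies and varied as widely elsewhere: Rps15a-ps6 was 26.4 and 3.83 RPKM in the P3 Jmjd1aKO pair. Bag3, a co-chaperone, was 12.6 and 14.3 RPKM against 10.2 and 7.54 RPKM. Wfs1, a membrane protein of the endoplasmic reticulum, was 6.07 and 6.53 RPKM against 4.78 and 4.23 RPKM. Hacd1, which elongates fatty acids, was 11.1 and 11.7 RPKM against 8.96 and 7.76 RPKM. Ccbl2 and the calcium pump gene Atp2b4 had changes of -0.49 and -0.30.

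The gene lists were read by role, beginning with the enzymes of H3K9 methylation. In none of the 25 lists did a member pass, against 0.0224% of all genes. List medians are given beside the median over all 13414 genes, which was -0.01. Of the 11 H3K9 demethylases tested, 1 (Kdm3b) had an unadjusted p under 0.05, and the median change was -0.08. Kdm1a, which acts through another chemistry, was 104 and 92.8 RPKM in the controls and 97.3 and 82.2 RPKM in the knockouts. Phf8 was 11.1 and 10.95 RPKM against 10.2 and 11.1 RPKM. Phf2 was 18.6 and 10.9 RPKM against 18.2 and 9.79 RPKM, again high in both first replicates and low in both second ones.

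The enzymes and readers that oppose the demethylases gave no call. Over the 17 H3K9 methyltransferases and readers tested the median change was -0.01, and changes ran from -0.31 to 0.34. For 16 of the 17 the 95% interval lay within 2-fold. Ehmt2, the main dimethyltransferase of H3K9, was 109 and 110 RPKM in the controls and 104 and 111 RPKM in the knockouts. Setdb1, which trimethylates it, was 49.97 and 62.0 RPKM against 52.0 and 58.3 RPKM. Cbx3, a reader of the heterochromatin protein family, was 223 and 239 RPKM against 235 and 222 RPKM. Zfp644, a partner of the EHMT enzymes, had the only unadjusted p under 0.05 (0.0234), at 23.7 and 28.8 RPKM against 22.5 and 19.2 RPKM.

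The 7 DNA methylation enzymes tested had a median change of -0.02. Dnmt1, which maintains methylation, was 147 and 159 RPKM against 154 and 164 RPKM, and its partner Uhrf1 was 182 and 226 RPKM against 194 and 207 RPKM. Dnmt3a, a de novo enzyme, was 41.6 and 36.4 RPKM against 41.0 and 34.1 RPKM. Dnmt3l, the cofactor of de novo methylation, was 18.0 and 13.9 RPKM in the controls, 16.6 RPKM in replicate 1 of the knockouts and 4.83 RPKM in replicate 2. In P3 Jmjd1aKO it was likewise lower in replicate 2, at 15.1 against 35.8 RPKM.

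Genes of spermatogonia gave no call. The 30 undifferentiated spermatogonia genes tested had a median change of -0.06, with 0 at an unadjusted p under 0.05 and 27 intervals within 2-fold. Gfra1, the receptor for GDNF on stem cells, was 137 and 114 RPKM in the controls and 149 and 90.2 RPKM in the knockouts. Its partner Ret was 123 and 100.1 RPKM against 124 and 85.3 RPKM. In both genes replicate 1 of the knockouts was the highest library and replicate 2 the lowest. Etv5, a factor downstream of GDNF, was 134 and 121 RPKM against 141 and 112 RPKM. Zbtb16, a factor of stem cell maintenance, was 32.1 and 39.9 RPKM against 32.3 and 39.0 RPKM.

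Of the 15 differentiating spermatogonia genes tested, 1 had an unadjusted p under 0.05. That gene, Stra8, which retinoic acid induces before meiosis, was 27.7 and 35.9 RPKM in the controls and 39.2 and 69.97 RPKM in the knockouts (0.71 ± 0.28, SE; unadjusted p = 0.0266, adjusted p = 0.978). Both knockouts lay above both controls, by little in replicate 1. Stra8 was also 40.4 and 50.7 RPKM in P3 Jmjd1aKO, 53.2 and 61.2 RPKM in P3 WT and 21.3 and 20.7 RPKM in P3 DKO. Kit, the receptor that marks differentiation, was 28.0 and 26.7 RPKM against 27.7 and 18.5 RPKM. Sohlh1 was 133 and 106 RPKM against 148 and 114 RPKM, Ccnd2 was 151 and 136 RPKM against 137 and 138 RPKM, and Crabp1 was 115 and 137 RPKM against 121 and 117 RPKM.

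Among 16 genes of the retinoic acid pathway tested, the receptor Rara had the only unadjusted p under 0.05 (0.0231), at 16.9 and 13.9 RPKM against 19.4 and 22.9 RPKM. The highest change of that list, 2.12, belonged to Aldh1a1, which is one of the Sertoli genes above and was high in replicate 2 alone. The median change of the list was -0.03. Rxra, the common partner of the receptors, was 31.2 and 29.6 RPKM against 31.2 and 26.2 RPKM.

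The lists for later germ cell functions also stood near the background. The piRNA pathway, which silences transposons, had a median of -0.09 over 22 genes tested, with 21 intervals within 2-fold. Piwil2 was 157 and 145 RPKM in the controls and 157 and 119 RPKM in the knockouts, Mael 397 and 358 RPKM against 412 and 294 RPKM, and Fkbp6 411 and 396 RPKM against 450 and 404 RPKM. The 23 genes of meiotic prophase tested had a median of -0.06, with Syce2, of the synaptonemal complex, at 136 and 153 RPKM against 148 and 170 RPKM. The 9 spermatid genes tested had a median of -0.13, with Tnp1, a transition protein, at 12.8 and 9.57 RPKM against 12.4 and 8.11 RPKM. The pan-germ-cell list had a median of -0.13 over 18 genes tested. In each of these 4 lists the median was above 0 in replicate 1 (0.05, 0.04, 0.12 and 0.04 in that order) and below 0 in replicate 2 (-0.18, -0.24, -0.40 and -0.24).

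Cell cycle genes gave no call. The 28 genes of G2 and mitosis had a median change of 0.17, made of -0.05 in replicate 1 and 0.42 in replicate 2. The controls themselves differed by 0.44 in the same direction, replicate 2 being the higher. In summed RPKM the list stood at 1264 and 1724 in the controls and at 1458 and 1945 in the knockouts. Each knockout library was thus above the control of the same replicate number, and 24 of the 28 genes (85.7%) were so in both numbers, against 27.2% of all genes. In S phase and replication 15 of 32 (46.9%) were, and in the ribosomal proteins 34 of 40 (85%). The labels give these numbers no meaning beyond a count. Without regard to the numbers, 1 of the 28 G2 and mitosis genes (3.57%) had both knockouts above both controls, against 10% of all genes. In S phase and replication 3 of 32 (9.375%) did, and in the ribosomal proteins 6 of 40 (15%). Cenpa, the histone of centromeres, was 109 and 121 RPKM against 132 and 159 RPKM, and Cdca8, of the chromosomal passenger complex, was 123 and 145 RPKM against 141 and 147 RPKM. The 32 genes of S phase and replication had a median of 0.06, with all 32 intervals within 2-fold. Pcna, the replication clamp, was 250 and 288 RPKM against 270 and 290 RPKM, and Mcm3 was 199 and 214 RPKM against 216 and 206 RPKM.

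Germline gene clusters gave 0 calls as well. The 15 Rhox genes tested, an X-linked homeobox cluster, had a median change of -0.04, from -0.59 for Rhox5 to 2.12 for Rhox8. Rhox8 was 1.23 and 1.22 RPKM in the controls, 0.947 RPKM in replicate 1 of the knockouts and 46.9 RPKM in replicate 2, and was 36.7 RPKM in replicate 2 of P3 Jmjd1aKO. Rhox8 was thus high in the same 2 libraries as the Sertoli markers. Rhox5 was 41.3 and 29.2 RPKM against 34.5 and 14.8 RPKM, Rhox10 was 23.7 and 28.9 RPKM against 23.0 and 28.2 RPKM, and Rhox13 was 26.1 and 25.7 RPKM against 28.2 and 24.5 RPKM. The 20 Mage and Xlr genes tested had a median of 0.00, with every interval within 2-fold. Mageb4 was 168 and 195 RPKM against 180 and 183 RPKM.

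Imprinted genes had a median of -0.01 over 25 tested. H19, a maternally expressed RNA, was 78.9 and 89.4 RPKM against 103 and 111 RPKM (0.35 ± 0.30, SE), and Mest, a paternally expressed gene, was 43.4 and 60.1 RPKM against 37.2 and 39.5 RPKM (-0.41 ± 0.26, SE). Both intervals spanned 0. In the list, 1 gene had both knockouts above both controls and 2 had both below, which is 4% and 8% of those tested against 10% and 11.4% of all genes.

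Stress and signalling lists complete the set. Hypoxia targets had a median of -0.08 over 24 tested, and Adm, a vasoactive peptide, had the only unadjusted p under 0.05 (0.0339) at 3.78 and 6.45 RPKM against 2.86 and 0.900 RPKM. Targets of p53 had a median of -0.14 over 19 tested, with Bax, which promotes apoptosis, at 94.0 and 128 RPKM against 97.3 and 152 RPKM. Mdm2, which degrades p53, was 88.4 and 73.1 RPKM against 86.1 and 61.9 RPKM. Immediate early genes had a median of 0.15 over 20 tested, of which 9 had an interval within 2-fold. Egr1 was 183 and 97.8 RPKM against 149 and 161 RPKM, and Fosb was 0.786 and 0.263 RPKM against 1.0 and 7.39 RPKM. The 40 ribosomal protein genes had a median of 0.13, with 6 (15%) above both controls in both knockouts and 0 below, where all genes had 10% and 11.4%. The median over them was 0.03 in replicate 1 and 0.23 in replicate 2, and the controls differed by 0.23.

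**Figure D4:**
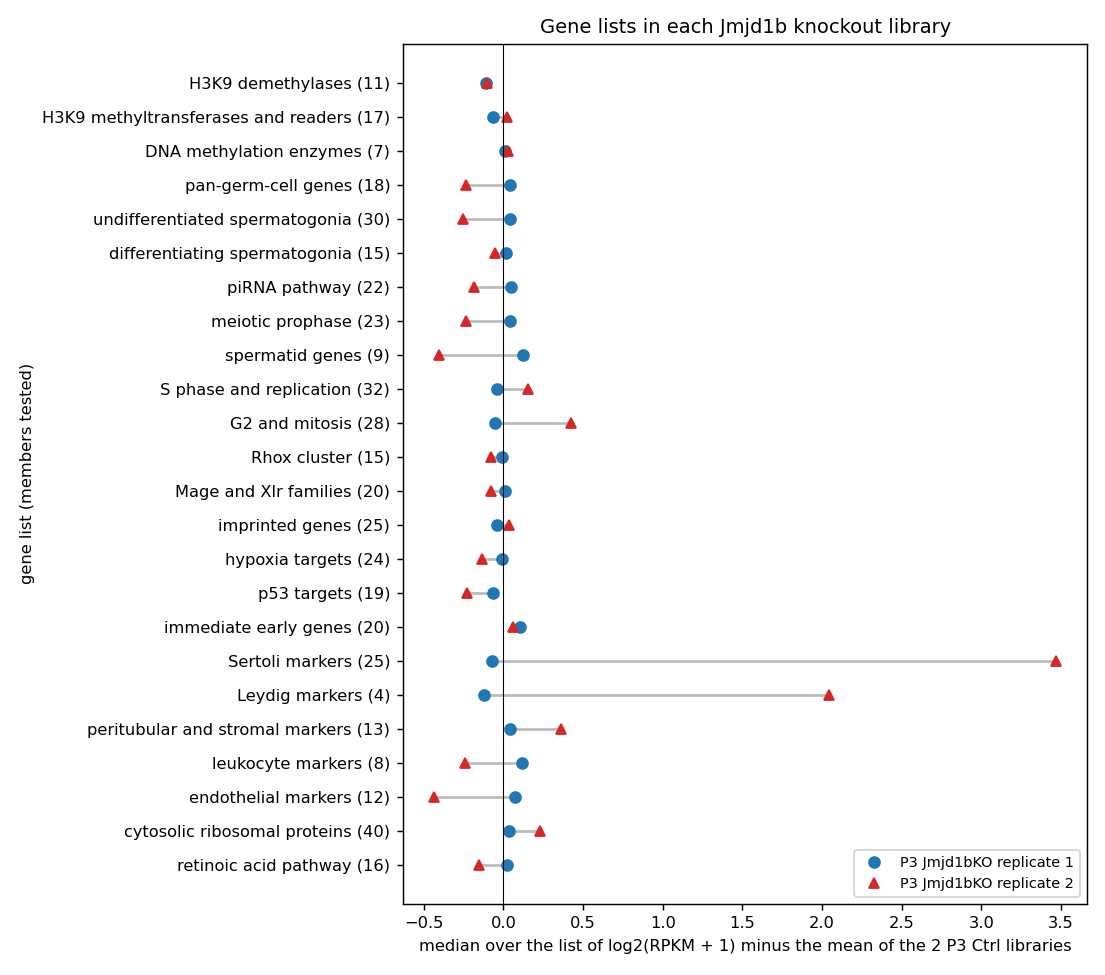
Median over each gene list of log2(RPKM + 1) in a P3 Jmjd1bKO library minus the mean of the 2 P3 Ctrl libraries (x axis), for replicate 1 (circles) and replicate 2 (triangles), with the number of members tested in brackets; lists with fewer than 4 tested members are left out. Replicate 1 lies between -0.12 and 0.12 in every list shown, while replicate 2 reaches 3.47 for Sertoli markers and 2.04 for Leydig markers.

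The same loss of Jmjd1b was also made in cells without Jmjd1a, P3 DKO against P3 Jmjd1aKO, and this comparison shares no library with the first. It had 3 calls (0.0224%), all lower, among them Exoc3l and Mir23a, which was listed at 0 in P3 DKO. Exoc3l was named after its values were seen. Exoc3l, related to a subunit of the exocyst, was 9.43 and 9.36 RPKM in P3 Jmjd1aKO and 3.20 and 3.52 RPKM in P3 DKO, a change of -1.25 ± 0.13 (SE; limma adjusted p = 0.00802). With 1 copy of Jmjd1a it was 13.7 and 12.5 RPKM in P3 Ctrl and 11.8 and 11.2 RPKM in P3 Jmjd1bKO, a change of -0.18 ± 0.13 (SE). The call was lost in 5 alternatives, with adjusted p from 0.0743 to 0.196, 4 of which left out 1 or more libraries. Kdm3b changed by -1.24 ± 0.21 (SE; adjusted p = 0.32).

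The test of the difference between the 2 settings had 3 calls (0.0224%), among them Mir8105 and Mir93, each listed at 0 in 3 of the 4 groups. Exoc3l, with a difference of -1.08 ± 0.18 (SE), did not pass (adjusted p = 0.302), nor did Kdm3b (-0.37 ± 0.30, SE; adjusted p = 0.543) or Jup (-1.14 ± 0.20, SE; adjusted p = 0.302). With no adjustment, 1886 genes (14.1%) had a p under 0.05, against 1401 (10.4%) for the loss without Jmjd1a and the 264 of the loss with 1 copy. Replicate 2 of P3 Jmjd1aKO, with its Sertoli sum of 1906 RPKM, stands on the reference side of the second setting, whereas replicate 2 of P3 Jmjd1bKO stands on the knockout side of the first. When these 2 libraries were left out, 669 genes had an unadjusted p under 0.05 for the difference and 563 for the loss without Jmjd1a. The loss with 1 copy then had 79.

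Across 13414 genes the changes in the 2 settings had r = -0.38 and rho = -0.63, and without those 2 libraries r = -0.14 and rho = -0.43. The Sertoli markers had medians of 1.67 with 1 copy of Jmjd1a and -1.32 without Jmjd1a, then -0.07 and 0.14 once the 2 libraries were left out. S phase genes had medians of 0.06 and -0.28, then -0.04 and -0.14. The G2 and mitosis genes had medians of 0.17 and -0.32, then -0.05 and -0.04. Rhox genes had medians of -0.04 and 0.17, then -0.01 and 0.21. In all 25 lists 0 members passed the test of the difference.

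**Figure D5:**
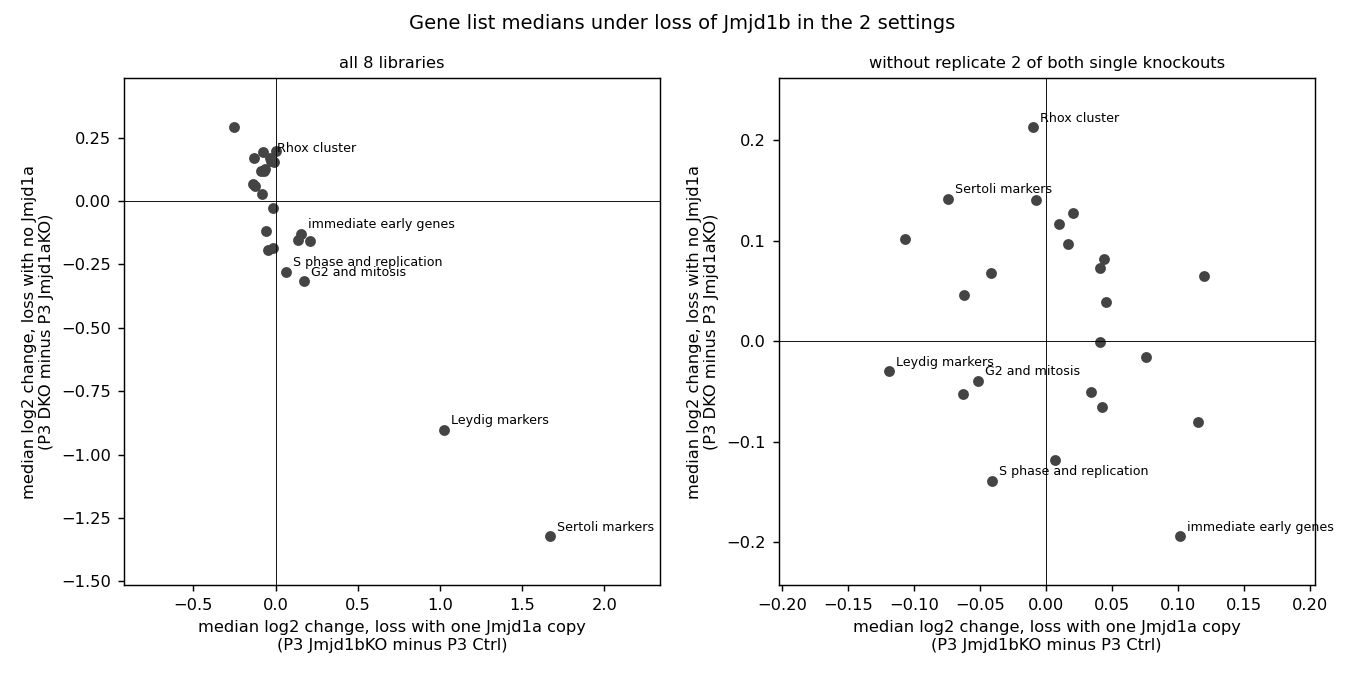
Median log2 change of each gene list (1 point each) under loss of Jmjd1b with 1 copy of Jmjd1a (x axis) and with none (y axis), from all 8 libraries (left) and without replicate 2 of both single knockouts (right, where axes are narrower). Sertoli markers go from 1.67 and -1.32 on the left to -0.07 and 0.14 on the right.

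Set directly against each other, P3 Jmjd1bKO and P3 Jmjd1aKO differed at 4 genes (0.0298%), and 1377 (10.3%) had an unadjusted p under 0.05. The second count was 657 without replicate 1 of P3 Jmjd1aKO, 510 with array weights and 2301 with the Sertoli covariate. Kdm3a was higher in P3 Jmjd1bKO by 1.30 ± 0.11 (SE; limma adjusted p = 0.00135), as the genotypes set it. That call was lost when only the 8 libraries of P3 Ctrl, P3 DKO and the single knockouts were fitted (adjusted p = 0.0552). It was also lost when the 2 libraries high in Sertoli transcripts were left out, with a change of 1.32. Mir8105 and Mir23a made up the small RNA loci. The fourth was Dppa5a, a pluripotency gene of early germ cells, at 53 and 48.3 RPKM in P3 Jmjd1bKO against 82.5 and 90.1 RPKM in P3 Jmjd1aKO, a change of -0.76 ± 0.10 (SE; adjusted p = 0.0467). It stood at 52.1 and 55.2 RPKM in P3 Ctrl, near the level in P3 Jmjd1bKO. Leaving out any 1 of the 8 libraries of P3 Jmjd1bKO, P3 Jmjd1aKO, P3 Ctrl and P3 DKO ended that call, with adjusted p from 0.0686 to 0.300. So did a pseudocount of 0.1 (0.0508), leaving out small RNA loci (0.0697), fitting only those 8 libraries (0.373) and array weights (0.847). Leaving out both libraries high in Sertoli transcripts ended it too, with a change of -0.63.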

How the data were processed

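RNA-seq values of 14 libraries were used, in 7 groups of 2 taken from the titles. The authors deposited RPKM per gene symbol; per the submitters' processing notes TopHat2 2.1.1 and Cufflinks 2.1.1 were used on mm10, with neither roles nor annotation given. Per the labels' protocols, extraction used an AllPrep DNA/RNA Micro kit, followed by a TruSeq Stranded mRNA LT kit. The files hold no counts. Depth was estimated from steps between low RPKM values of 3505 genes with a single transcript of 800 to 8000 nucleotides. For each library the depth taken was the one with the largest share of genes used within 0.2 of a whole fragment number. That share was 65.8 to 74.2%, where chance at a fixed depth gives 40%. As the share was maximised, it is no test of the depth.

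Values were used as log2(RPKM + 1), without further scaling. Genes with 1 RPKM or more in 2 or more of the P3 Ctrl and P3 Jmjd1bKO libraries were fitted with limma 3.58.1 (R 4.3.3, trended eBayes), with 1 coefficient per group over 14 libraries (7 residual and 3.01 prior degrees of freedom), two-sided, with Benjamini-Hochberg adjustment over all genes. The model was tested on simulated data. Coordinates came from GENCODE M21, which held 95.8% of symbols, and microRNA sequences from RefSeq. The 25 lists, the groups and the rule for naming genes were chosen with earlier results of these data known. The rule took Kdm3a and Kdm3b, all calls, the 8 widest gaps each way among named genes with a mean of 5 RPKM or more, the 2 most abundant members of each list (6 Sertoli markers), calls of the other contrasts and the 6 largest differences each way between the knockout replicates. Other members named from a list, with values only, were chosen after their values were seen. Alternatives changed the pseudocount, filter, scaling, libraries, weights, block and covariate. A further 2 genes that the rule or a marker list took are not reported here, though they stay in every fit and count.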

Additional observations from a re-analysis of the deposited data

Results flagged for a closer look

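The change under loss of Jmjd1b differed between cells with 1 copy of Jmjd1a and cells without it at the loci Mir8105 and Mir93, by the interaction contrast of limma. Each had an adjusted p of 1.97e-06, and each was listed above 0 in 2 libraries of the 14 only, those of P3 Jmjd1bKO and P3 Ctrl respectively. Both rest on values listed at 0, and no count is at hand to tell a true 0 from an estimate that failed.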

How the results depend on the processing

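For P3 Jmjd1bKO against P3 Ctrl, 3 calls became 15 when only the 4 libraries were fitted, 5 without both libraries high in Sertoli transcripts and 0 without small RNA loci (limma, 256 at an unadjusted p under 0.05). Leaving out 1 library gave 3 to 5. In each of these settings 0 of the calls were outside the small RNA loci. The loss without Jmjd1a went from 3 to 27 with no filter and to 5 with the filter over 14 libraries. Fitting only the libraries of P3 Ctrl, P3 DKO and the single knockouts gave 5. The count also moved in some fits with 1 library left out. The difference between settings went from 3 to 6 with no filter, to 5 with the filter over 14 libraries, to 5 from its own libraries, to 1 without small RNA loci and to 3 to 6 with 1 library left out. P3 Jmjd1bKO against P3 Jmjd1aKO went from 4 to 7 under quantile normalization, 24 with the Sertoli covariate, 1 without small RNA loci and 3 to 6 with 1 library left out. The count at an unadjusted p under 0.05 for the first comparison moved from 264 with the libraries kept and with the fit. It was higher without replicate 1 of P3 Jmjd1bKO or of P3 Ctrl and lower without replicate 2 of either. With array weights it was 58, and with only the 4 libraries fitted it was 55. Over all alternatives it ran from 55 to 2411, and the same count ran from 348 to 2955 for the loss without Jmjd1a, from 622 to 3793 for the difference and from 510 to 2370 for the single knockouts. Kdm3b kept its direction in all alternatives, from -0.58 without replicate 1 of P3 Jmjd1bKO to -1.15 without replicate 2, and Kdm3a lay between -0.14 and -0.03. With 1 library left in a group, that library is assumed to vary like the other groups.

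Same-numbered libraries share only a number in the labels. Their deviations from the group means had correlations of 0.25 between P3 Ctrl and P3 Jmjd1bKO and 0.64 between the single knockouts. With the replicate block, calls were 3 for P3 Jmjd1bKO against P3 Ctrl (355 at an unadjusted p under 0.05), 3 for the loss without Jmjd1a, 3 for the difference and 6 for P3 Jmjd1bKO against P3 Jmjd1aKO. Kdm3b was -0.87 and Kdm3a -0.08 in that fit, and it changed no call of a named gene.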
